A study of Mus musculus with 6 samples.

Results

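Neuropeptide Y (Npy), its receptor Npy1r, the protease Dpp4, the neurotrophin receptor Ngfr and the adrenergic receptor Adrb1 were examined in spleens of female NOD.B10 mice, a strain that develops a disease like primary Sjögren's syndrome (pSS), and of female BL/10 (C57BL/10) controls. These 5 genes, of 47729 in the count table, were chosen on their measured strain values and their roles in signaling between nerves and immune cells. Their strain differences are therefore given as a description, without a test. RNA-seq was performed on 3 spleens of each strain. With strain taken from the sample descriptions, the labels give 26 weeks as the age of all NOD.B10 mice and of BL/10 replicate 1. They give 36 weeks for BL/10 replicates 2 and 3. By these labels 1 BL/10 library remains at a matched age. The paper instead states 26 weeks for NOD.B10 and controls of matched age. BL/10 is an inbred strain related to C57BL/6, from which the reference genome derives, and NOD.B10 combines the NOD background with the major histocompatibility region of BL/10. The labels name no treatment.

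Sympathetic nerves enter the spleen along its arteries and release norepinephrine together with neuropeptide Y. NPY is made as a precursor and cut to an amidated peptide that acts on a family of G protein-coupled receptors, of which Y1 (Npy1r) is found on immune cells. The protease DPP4, known as CD26 on T cells, removes a dipeptide from the front of NPY, and the shortened peptide no longer activates Y1 well. NGFR (p75) binds neurotrophins and marks follicular dendritic and other stromal cells as well as neurons and glia. The beta-1 adrenergic receptor (Adrb1) responds to norepinephrine.

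Npy and Dpp4 meet in sequence at the first residues of the mature peptide. The stretch of Npy that encodes the mature peptide of 36 residues (codons 29 to 64 of a precursor of 97) was read from the GENCODE M21 transcript on the GRCm38 build. It begins at chr6:49823682-49823785 on the plus strand, in exon 2 of 4, and ends at chr6:49827489-49827492 in exon 3. It is shown because its first 2 codons, in capitals, encode the dipeptide that DPP4 removes.

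Npy coding stretch: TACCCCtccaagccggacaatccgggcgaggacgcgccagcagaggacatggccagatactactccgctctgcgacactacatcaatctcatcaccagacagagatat

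The 250 bases before the RefSeq start of Npy (GRCm38.p6, chr6:49822460-49822709, plus strand) are shown because no read of Npy was counted in BL/10 spleens. Capitals mark matches, on either strand, to the CCAAT box (CCAAT, read here as ATTGG) and the GC box (GGGCGG).

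Npy upstream: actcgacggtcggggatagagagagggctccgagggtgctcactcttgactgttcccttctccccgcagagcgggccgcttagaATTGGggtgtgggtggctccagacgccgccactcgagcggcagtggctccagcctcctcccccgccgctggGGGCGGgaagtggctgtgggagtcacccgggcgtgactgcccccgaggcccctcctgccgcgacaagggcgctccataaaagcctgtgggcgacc

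The CCAAT match begins 166 bases and the GC box 95 bases before the start. CCAAT was present in 33.8% and GGGCGG in 32.7% of 32851 RefSeq windows of this length, so neither is rare. The TATA-box letters TATAAA were not in this window and were held by 12.4% of all windows. TGACG, the core of the cAMP response element, was likewise not in it and was held by 17.8%. The same was true of TGANTCA (AP-1 element, held by 6.75%). CANNTG (E-box), held by 66.2%, was also not found. Among the other 4 genes, the same search found 1 CCAAT, 1 GGGCGG and 1 TGACG for Adrb1, which thus shared both motifs marked for Npy. It found 4 GGGCGG and 2 CANNTG for Ngfr, 1 TGANTCA and 1 CANNTG for Npy1r, and 1 TATAAA and 1 CANNTG for Dpp4. The sequence is that of the reference strain, and the bases carried by NOD.B10 and BL/10 mice were not analysed here.

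The NOD.B10 libraries had total counts of 16257041 to 17160323 and the BL/10 libraries of 15662712 to 18298451. The titles and strain fields of all 6 samples name the opposite strain from their descriptions and from the columns of the table. Descriptions and columns were followed, and under the titles every direction below would be reversed. Of 15330 genes tested with edgeR's quasi-likelihood test, 17.3% passed a Benjamini-Hochberg adjusted p of 0.05 (9.11% higher and 8.22% lower in NOD.B10), and the libraries of the strains did not overlap for 38.0%. Genes of the pancreas acinar list, a tissue next to the spleen, summed to 14075, 2111 and 112 TMM-normalized CPM (counts scaled to equal depth) in BL/10 replicates 1, 2 and 3 and to 23.1 to 31.3 CPM in NOD.B10, with 14 of 14 tested genes lower in NOD.B10. Neutrophil markers were also lower (11 of 12, 2205 to 2558 against 6232 to 12998 CPM).

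All 5 genes passed the filter on low counts, Npy only through the NOD.B10 libraries. The libraries of the strains did not overlap for 3 of the 5 genes. In NOD.B10, 2 lay above and 1 below the controls. Because the genes were chosen with this contrast known, nothing is read from that count beside the 38.0% of all tested genes.

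The ligand, Npy (ENSMUSG00000029819, chr6:49822710-49829507), was counted in NOD.B10 spleens and in no BL/10 spleen. The NOD.B10 libraries held 158, 180 and 126 reads (replicates 1, 2 and 3), or 9.45, 11.1 and 7.08 CPM. The BL/10 libraries held 0, 0 and 0 reads. A floor of 3 counts corresponds to between 0.163 and 0.201 CPM in these libraries and covers counting error only. With each BL/10 library set to this floor, the NOD.B10 mean of 9.19 ± 2.00 CPM (SD, n = 3) was at least 51.6-fold higher. Npy was the only 1 of 47729 genes with no read in any BL/10 library and at least 100 reads in every NOD.B10 library. When up to 3 reads were allowed in each BL/10 library there were 17 such genes. As Npy was chosen on its strain values, these counts are a description only. In whole tissue, fewer cells that express a gene and less RNA per cell cannot be told apart.

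**Figure D1:**
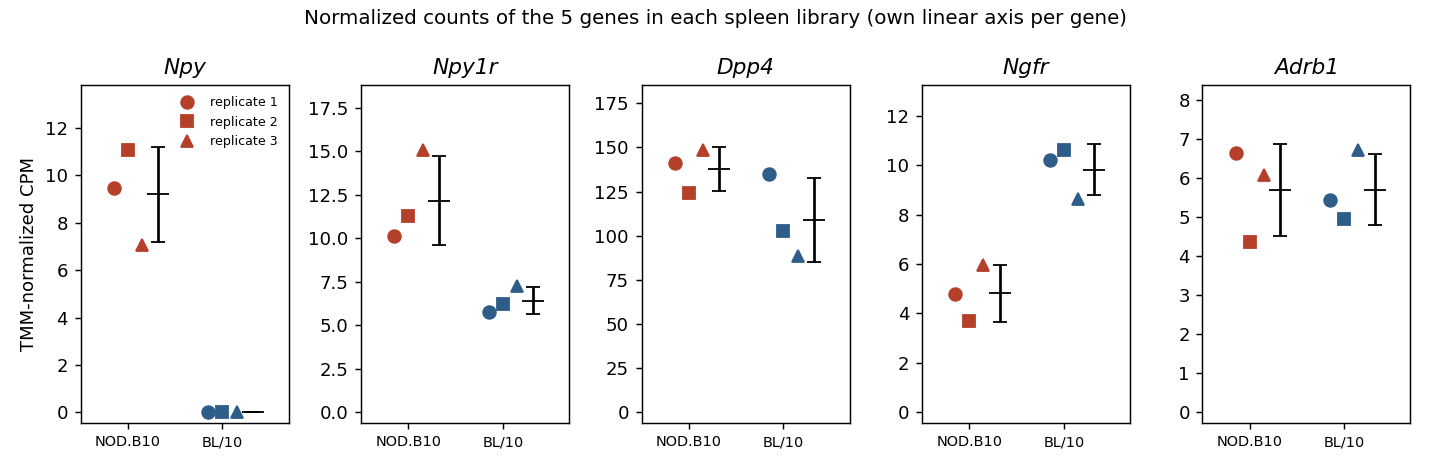
TMM-normalized CPM of the 5 genes in each spleen library (red NOD.B10, blue BL/10; symbols give the replicate, black bars the mean and SD of 3 libraries; each panel has its own linear axis from 0). Npy is at 0 in all BL/10 libraries, Npy1r lies higher and Ngfr lower in NOD.B10 without overlap, and the libraries overlap for Dpp4 and Adrb1.

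Npy1r (ENSMUSG00000036437, chr8:66697422-66706798), the Y1 receptor through which NPY acts on immune cells, was higher in NOD.B10 spleens. The NOD.B10 libraries held 170, 184 and 268 reads and the BL/10 libraries 106, 93 and 128 reads. After normalization, these were 10.2, 11.3 and 15.1 CPM against 5.76, 6.24 and 7.27 CPM. The lowest NOD.B10 library was thus above the highest BL/10 library, and NOD.B10 replicate 3 stood above the other two. The means were 12.2 ± 2.56 and 6.42 ± 0.775 CPM, a log2 fold change of 0.92 (SE 0.18). Without any 1 library the value was between 0.74 and 1.04, and without both libraries labelled 36 weeks it was 1.08.

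Markers of T cells moved in the direction of Npy1r. Of 20 T cell markers, 17 were higher in NOD.B10, including Cd3e (log2 fold change 1.42, adjusted p = 0.000414), a chain of the T cell receptor complex, and Lef1 (1.82, adjusted p = 0.00631), a transcription factor of naive T cells. Their summed level was 1544, 1422 and 1954 CPM in NOD.B10 and 911, 751 and 671 CPM in BL/10. NOD.B10 replicate 3 was highest for the T cell list as for Npy1r, whereas BL/10 replicate 3 was the highest of its strain for Npy1r and the lowest for the T cell list. The move was not particular to T cells. Plasma cell and stromal sums were also higher in each NOD.B10 library than in any BL/10 library. The libraries of the strains did not overlap for 38.0% of all tested genes. NOD.B10 replicate 3 was also highest for the stromal and B cell lists, but not for the plasma cell list. The part of T cells or of these other cells in the Npy1r values was not tested.

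The rest of the NPY family gave few or no reads. Pyy and Ppy, the related peptides of gut and pancreas, and the receptors Npy2r and Npy5r were at 0 in all 6 libraries. Npy6r had 1 read in NOD.B10 replicate 1 alone. Npy4r, the receptor for pancreatic polypeptide, had 4, 1 and 2 reads in NOD.B10 and 1, 1 and 0 in BL/10. None of these 6 genes passed the filter, so Npy1r was the only receptor of the family with a measurable level at this depth.

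Dpp4 (ENSMUSG00000035000, chr2:62330073-62412231), which shortens NPY and costimulates T cells, overlapped between the strains. The reads numbered 2364, 2021 and 2640 in NOD.B10 and 2484, 1532 and 1563 in BL/10. In CPM the values were 141, 124 and 148 against 135, 103 and 88.8. BL/10 replicate 1 lay among the NOD.B10 libraries and the other two BL/10 libraries below them. Within each strain the libraries stood in the order of their T cell marker sums, and the part of T cells in the Dpp4 values was not tested. The means were 138 ± 12.5 and 109 ± 23.6 CPM, with a log2 fold change of 0.34 (SE 0.16). The value depended on which BL/10 libraries were compared. It was 0.03 without both of them, 0.21 without BL/10 replicate 3 and 0.52 without BL/10 replicate 1. Exons of Dpp4 overlap those of Gm13561, and reads on the shared part were counted for neither gene.

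Other members of the DPP4 family, not all of them active proteases, and other peptidases that cut neuropeptides were counted beside Dpp4. Of 13 tested genes in this list, 3 were higher and 0 lower in NOD.B10. The median log2 fold change of the list was 0.04 (all genes tested 0.000599). Dpp7, a lysosomal and vesicular dipeptidyl peptidase, had 731, 700 and 804 reads in NOD.B10 and 439, 283 and 335 in BL/10 (log2 fold change 1.09, SE 0.11, adjusted p = 0.000794). Mme, or neprilysin, a membrane protease of lymphoid precursors and stroma, had 377, 386 and 368 against 255, 165 and 205 reads (0.87, SE 0.12, adjusted p = 0.00322). Both stayed past the threshold without any 1 library. Dpp10, a family member that lacks protease activity and binds potassium channels, had 23 to 30 against 10 to 17 reads (1.13, SE 0.25, adjusted p = 0.0223). Dpp10 lost the call without NOD.B10 replicate 1 or 3 (adjusted p = 0.0918 and 0.0718) or BL/10 replicate 2 or 3 (0.0741 and 0.0761). The closest relatives of Dpp4 did not pass. The log2 fold change was -0.27 (SE 0.27) for Fap, a protease of activated fibroblasts encoded beside Dpp4, -0.02 (SE 0.09) for Dpp8 and -0.01 (SE 0.08) for Dpp9, both proteases of the cytoplasm. Without both libraries labelled 36 weeks, Dpp7 still passed (adjusted p = 0.0101), and Mme and Dpp10 did not (0.0504 and 0.285).

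Ngfr (ENSMUSG00000000120, chr11:95568818-95587735), the p75 receptor, was the gene of the 5 with lower values in NOD.B10. The NOD.B10 libraries held 80, 60 and 106 reads and the BL/10 libraries 188, 158 and 152. The normalized values were 4.78, 3.68 and 5.96 CPM against 10.2, 10.6 and 8.64 CPM. All NOD.B10 libraries were below all BL/10 libraries. The means were 4.81 ± 1.14 and 9.81 ± 1.04 CPM, and the log2 fold change was -1.02 (SE 0.20). It was between -1.21 and -0.87 without any 1 library and -1.08 without both libraries labelled 36 weeks.

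Markers of cells known to carry p75 were counted beside Ngfr. The list of stromal and follicular dendritic cell markers summed to 2571 to 3104 CPM in NOD.B10 and 1990 to 2373 CPM in BL/10. Of 14 tested markers, 5 were higher (Pdgfra, Clu, Madcam1, Enpp2 and Ccl19) and 0 lower in NOD.B10, whereas Ngfr was lower. Cr2 and Cxcl13, markers of follicular dendritic cells that B cells also express in part, did not pass (log2 fold changes 0.51 and 0.45, adjusted p = 0.0662 and 0.107). Schwann cell markers summed to 133 to 137 CPM in NOD.B10 and 132 to 166 CPM in BL/10, with 1 of 5 tested genes higher (Erbb3) and 1 lower (Gfap).

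Among the other neurotrophin genes, 1 of 7 tested genes was higher and 0 were lower in NOD.B10 (median log2 fold change 0.30). Ntrk3, the receptor of neurotrophin-3, had 47, 57 and 104 reads in NOD.B10 and 39, 25 and 29 in BL/10 (log2 fold change 1.16, SE 0.31, adjusted p = 0.0396). Its call was lost without NOD.B10 replicate 2 or 3 (adjusted p = 0.0618 and 0.0975), without BL/10 replicate 2 or 3 (0.114 each), and without both libraries labelled 36 weeks (0.32). The ligands and the other receptors had low counts or did not pass. Ntf3 had 38 to 51 reads in NOD.B10 and 19 to 45 in BL/10 (0.39, SE 0.28), and Ntrk2, the receptor of BDNF, had 59 to 91 and 65 to 112 reads (-0.23, SE 0.23). Bdnf (at most 5 reads) and Ntf5 (5 to 15 reads) were not tested. Of 11 tested partners and adaptors of p75, such as Traf6 and Maged1, 0 passed in edgeR's test (3 at an unadjusted p under 0.05, 0 in DESeq2 and 0 in voom), with a median of 0.11.

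Adrb1 (ENSMUSG00000035283, chr19:56722372-56724862) differed between the strains by less than the spread of the libraries. The NOD.B10 libraries held 111, 71 and 108 reads and the BL/10 libraries 100, 74 and 118. In CPM these were 6.64, 4.36 and 6.07 against 5.43, 4.96 and 6.71, and the libraries of the strains overlapped fully. The means were 5.69 ± 1.19 and 5.70 ± 0.902 CPM. The log2 fold change was 0.00 (-0.0037) with an SE of 0.21, and its sign changed with the normalization and with the library left out (-0.13 to 0.16).

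Adrb3, the receptor of adipocytes, was not tested and had at most 8 reads except for 35 in BL/10 replicate 3, the library with the highest sum of adipocyte markers (320 CPM, against 118 to 163 CPM in the others). Of 8 tested adipocyte markers 0 passed in edgeR's test (1 at an unadjusted p under 0.05, 1 in DESeq2 and 0 in voom). Of the 5 other adrenergic receptors that were tested, 1 was lower and 0 higher in NOD.B10 (median -0.03). Adra2b, an alpha-2 receptor, had 6, 7 and 4 reads in NOD.B10 and 29, 20 and 26 in BL/10 (-2.11, SE 0.29, adjusted p = 0.0032). It passed without any 1 library and without both libraries labelled 36 weeks (adjusted p = 0.0417).

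**Figure D2:**
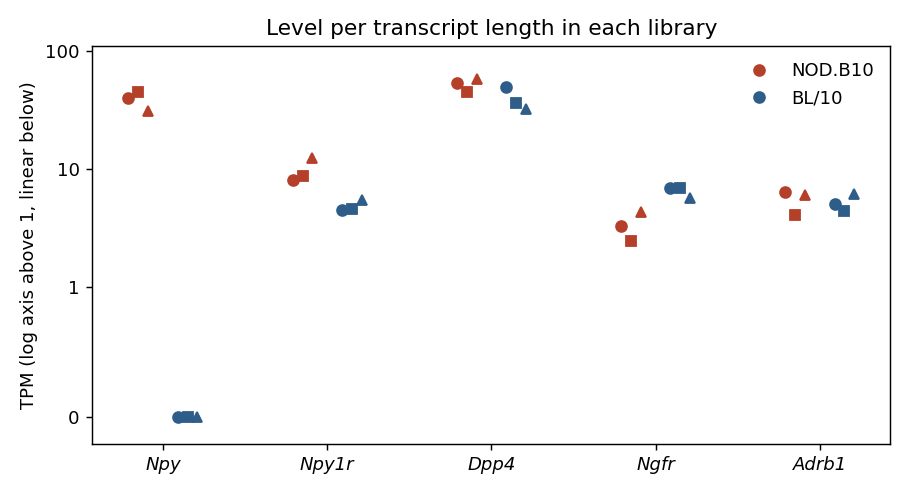
TPM (counts per exon length, scaled to an equal sum) of the 5 genes in each library (red NOD.B10, blue BL/10; symbols give replicates 1 to 3 as circle, square and triangle; the axis is logarithmic above 1 and linear below). Npy lies next to Dpp4 in NOD.B10 and at 0 in BL/10, and in BL/10 Adrb1 overlaps with Ngfr and with Npy1r, while Ngfr lies above Npy1r.

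Levels of the 5 genes were compared with each other per length, as TPM. In NOD.B10 the order was Dpp4 (52.0 ± 6.59 TPM), Npy (38.4 ± 6.96), Npy1r (9.67 ± 2.39), Adrb1 (5.45 ± 1.25) and Ngfr (3.34 ± 0.916), each as mean and SD of 3 libraries. Npy in NOD.B10 had a higher TPM than 75.6% of tested genes, and Dpp4 than 82.0%, whereas Npy1r, Adrb1 and Ngfr were above 41.0%, 30.0% and 22.5%. Dpp4 and Npy lay close (lowest 45.0 and highest 44.8 TPM), and Adrb1 and Ngfr overlapped. In BL/10 the order was Dpp4 (39.1 ± 9.26 TPM), Ngfr (6.44 ± 0.673), Adrb1 (5.18 ± 0.85) and Npy1r (4.83 ± 0.558), of which Adrb1 overlapped with both neighbors in the order, and Npy was at 0. Ngfr was thus the lowest of the 5 per length in NOD.B10 and second to Dpp4 in BL/10.

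Markers of the nerves that release norepinephrine gave few reads. These nerves enter the spleen from outside, so such reads do not measure its nerve supply. Markers of sympathetic neurons summed to 10.2 to 14.2 CPM in NOD.B10 and 13.5 to 18.0 CPM in BL/10, and Th and Dbh, which define these neurons, were at 0 in all 6 libraries. Slc6a2, the norepinephrine transporter, had at most 1 read. Of 7 tested markers 1 was lower in NOD.B10, namely Uchl1 with 3, 3 and 1 against 32, 17 and 30 reads, whose exons overlap its antisense gene.

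Of 178 other genes in 10 lists of neural signaling, 90 were tested, and 8 were higher and 4 lower in NOD.B10, or 13.3% against the 17.3% of all genes. Besides the genes above, 2 of 8 tested genes of catecholamine handling differed (median -0.44). Maob, which degrades amines in mitochondria, was higher (41 to 44 against 21 to 31 reads, log2 fold change 0.74, adjusted p = 0.0452), and Slc22a3, a transporter that clears catecholamines, was lower (70 to 103 against 112 to 143 reads, -0.70, adjusted p = 0.0263). Downstream of the receptors, 1 of 22 genes was higher and 1 lower (median 0.06). Adcy7, a major adenylyl cyclase of leukocytes, was higher (3371 to 4095 against 2041 to 2936 reads, 0.58, adjusted p = 0.00878). Prkar2b, a regulatory subunit of protein kinase A, was lower (1811 to 2477 against 2871 to 3328 reads, -0.57, adjusted p = 0.0493).

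Among other neuropeptide genes, 2 of 14 tested genes were higher and 0 lower (median 0.52). Vipr1, the receptor of vasoactive intestinal peptide on T cells, had 367, 340 and 440 reads in NOD.B10 and 179, 145 and 174 in BL/10 (1.20, SE 0.11, adjusted p = 0.000422). Vipr1 passed without any 1 library. It was higher in each NOD.B10 library than in any BL/10 library, as were the T cell, plasma cell and stromal sums. The libraries of the strains did not overlap for 38.0% of all tested genes. The part of T cells in the Vipr1 values was not tested. Ramp3, which pairs with receptors of calcitonin peptides, was higher (73 to 96 against 48 to 56 reads, 0.63, adjusted p = 0.0368) and has an overlapping gene, Gm11978. Of 6 tested cholinergic genes 1 was lower (median 0.22), namely Ache, which degrades acetylcholine and is also a gene of red cell precursors, with 369 to 489 against 673 to 846 reads (-0.89, adjusted p = 0.0136). Ache has an overlapping gene, Gm42456. Of 4 tested genes of dopamine and serotonin signaling 0 passed in edgeR's test (2 at an unadjusted p under 0.05, 0 in DESeq2 and 0 in voom), with a median of 0.46.

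Of these 12 genes, Adcy7, Adra2b, Dpp7, Mme and Vipr1 passed whichever library was left out, and the other 7 lost the call without at least 1 of them. Across the 10 lists, 12 genes passed with all libraries, 6 without NOD.B10 replicate 1, NOD.B10 replicate 3 or BL/10 replicate 2, 7 without BL/10 replicate 3, 9 without NOD.B10 replicate 2, 19 without BL/10 replicate 1 and 5 without both libraries labelled 36 weeks. Maob and Ramp3 lost the call whichever library was left out (adjusted p between 0.0532 and 0.15 and between 0.0512 and 0.117). Prkar2b lost it without NOD.B10 replicate 1 or 3 (0.173 and 0.175) or BL/10 replicate 2 or 3 (0.15 and 0.126), and Ache without the same 4 libraries (0.0644, 0.0651, 0.0529 and 0.0505). Slc22a3 lost it without NOD.B10 replicate 1 or 2 (0.108 and 0.076) or BL/10 replicate 2 or 3 (0.0614 and 0.0719). Adcy7 did not pass without both libraries labelled 36 weeks (0.11).

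**Figure D3:**
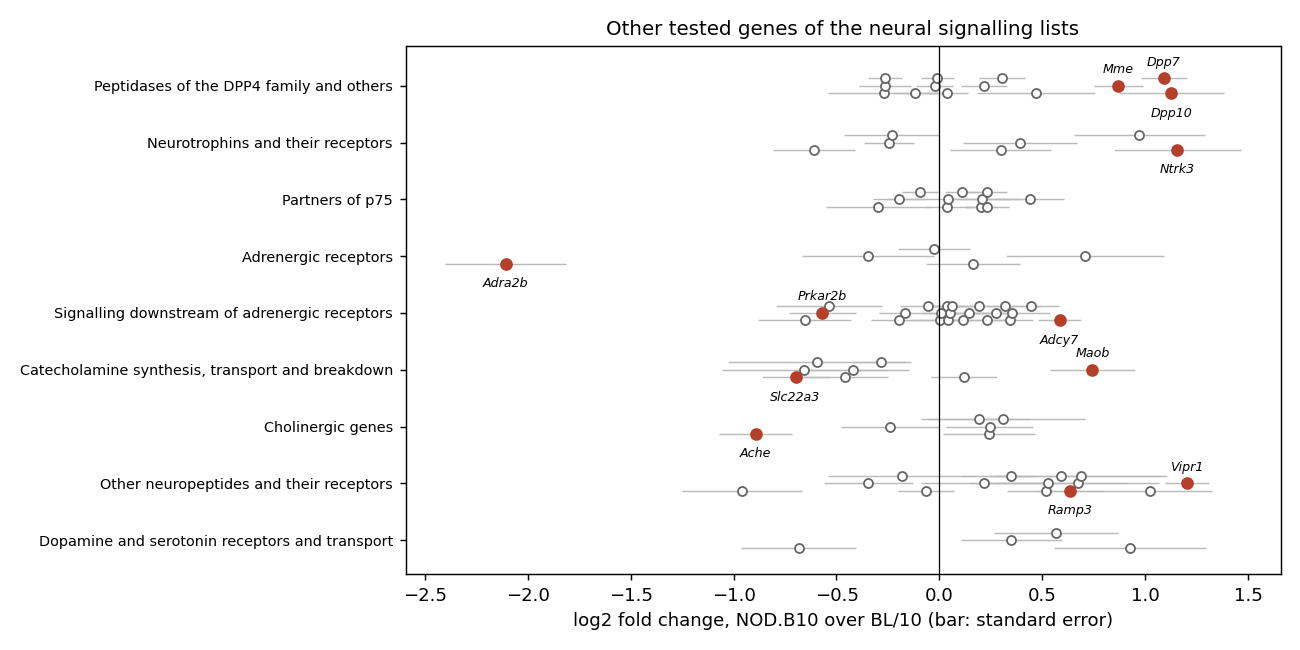
Log2 fold changes of the 90 tested genes of the neural signaling lists, without the 5 genes themselves (NOD.B10 over BL/10; horizontal bars give the standard error; filled red points passed an adjusted p of 0.05 and are named; rows are lists and the height within a row has no meaning). The 12 red points are 8 genes to the right of 0 and 4 to the left, with Adra2b farthest from 0 at -2.11.

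To see what lay beside each gene, the 5 nearest tested genes on either side were examined, and 11 of these 50 genes passed (4 higher and 7 lower in NOD.B10), or 22% against 17.3% of all genes. Beside Dpp4, 5 of 10 passed. Ifih1, the RNA sensor MDA5, was lower (387 to 482 against 760 to 1029 reads, log2 fold change -1.09, adjusted p = 0.00735). Gca, a calcium-binding protein of granulocytes, was also lower (198 to 203 against 306 to 362 reads, -0.71, adjusted p = 0.00763). Both passed without any 1 library. Neutrophil markers were lower as well, and the part of these cells in the Gca values was not tested. Kcnh7, a potassium channel, was lower (-1.05, adjusted p = 0.0447), and Pla2r1, a phospholipase receptor, was higher (0.91, adjusted p = 0.0128). Gm13561, which overlaps Dpp4, was higher at 17 to 21 against 8 to 12 reads (0.95, adjusted p = 0.038). The nearest gene on the other side, Psmd14, a proteasome subunit, did not pass (-0.17). The 3 lower genes all lay on the side of Gm13561, and Pla2r1 lay on the other.

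Beside Npy, the nearest tested genes were 432 kb to the left (Fam221a, -0.09, not passed) and 281 kb to the right (Mpp6, -0.50, adjusted p = 0.0152), a scaffold protein of the membrane. Ccdc126 to the left was higher (0.61, adjusted p = 0.0198), and the other 8 of the 10 did not pass. Beside Npy1r, Tma16 (-0.21) and Naf1 (-0.21) did not pass, and Psd3 (-0.44, adjusted p = 0.0451) and Sh2d4a (-1.04, adjusted p = 0.00697), an adaptor with an SH2 domain, were lower 982 and 1570 kb away. Beside Ngfr, Spop (-0.23) and Phb (-0.16) did not pass, Itga3 was higher (0.50, adjusted p = 0.0209) and Gngt2 was lower (-0.46, adjusted p = 0.0137). Beside Adrb1, 0 of 10 passed in edgeR's test (4 at an unadjusted p under 0.05, 1 in DESeq2 and 2 in voom), and the nearest were Nhlrc2 (-0.11) and Ccdc186 (0.09).

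The count of 11 passing neighbors fell to 4 without NOD.B10 replicate 1 or 3, 5 without BL/10 replicate 2 and 7 without NOD.B10 replicate 2. The count was 9 without BL/10 replicate 3 and rose to 15 without BL/10 replicate 1. Beside Dpp4 it was 2 without NOD.B10 replicate 3, without BL/10 replicate 2, or without both libraries labelled 36 weeks. Gm13561 lost the call whichever library was left out (adjusted p between 0.0687 and 0.14), and Kcnh7 without any but BL/10 replicate 3 (0.0762 to 0.146). Itga3 lost it without any NOD.B10 library or BL/10 replicate 2 (0.0525 to 0.0768), and Psd3 without any NOD.B10 library or BL/10 replicate 3 (0.0642 to 0.154). Ccdc126 lost it without NOD.B10 replicate 1 or BL/10 replicate 2 or 3 (0.0561 to 0.0907), and Mpp6 without NOD.B10 replicate 1 or 3 or BL/10 replicate 2 (0.0514 to 0.0556). Gngt2 lost it without NOD.B10 replicate 1 or 3 (0.06 and 0.0512) and Pla2r1 without NOD.B10 replicate 3 or BL/10 replicate 2 (0.0567 and 0.05). Without both libraries labelled 36 weeks, Ifih1 (-0.68, adjusted p = 0.0463), Pla2r1 (adjusted p = 0.0215) and Gngt2 (adjusted p = 0.0201) passed, and Gca (-0.49, adjusted p = 0.115) and Sh2d4a (-0.78, adjusted p = 0.0984) did not.

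**Figure D4:**
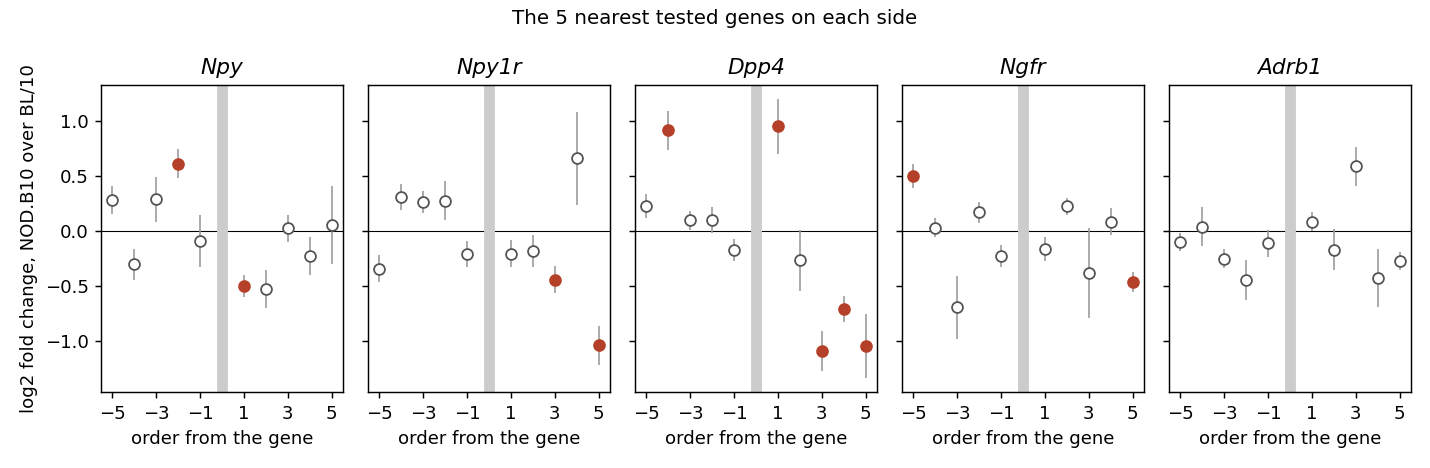
Log2 fold changes of the 5 nearest tested genes on each side of each gene (NOD.B10 over BL/10; negative positions lie toward lower coordinates; vertical bars give the standard error; filled red points passed an adjusted p of 0.05; the grey band marks the gene itself). Passing genes are 5 beside Dpp4, 2 each beside Npy, Npy1r and Ngfr and 0 beside Adrb1.

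The genes with the most similar values to each of the 5 were then found by the root mean square distance of centred log2 CPM over the 6 libraries. For Npy these were Gm14681 (distance 0.35, 304 to 370 reads in NOD.B10 and 1 to 3 in BL/10), Gm10704 (0.39) and Vsx1 (0.41), a homeobox factor of the retina with 112 to 165 and 0 to 1 reads. The distances for Npy were larger than for the other genes. Npy1r was closest to Rgs11 (0.052), a regulator of G proteins, Gm42979 (0.066) and Kcnc1 (0.093), a potassium channel. Dpp4 was closest to Chm (0.037), Fam118a (0.041) and Cd53 (0.049), a surface protein of leukocytes. For Ngfr, Lgi2 (0.078) and Spa17 (0.12) were among the 3 nearest, both with at most 32 reads. For Adrb1 they were Sema3d (0.052), a guidance factor, Parva (0.057), an adhesion protein, and Fgf11 (0.07).

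**Figure D5:**
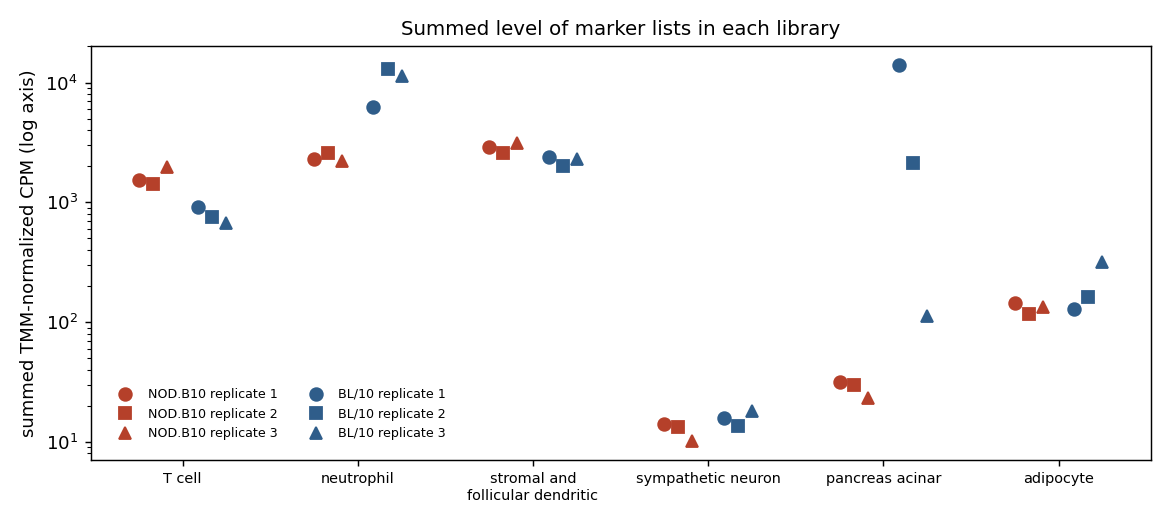
Summed TMM-normalized CPM of 6 marker lists in each library on a log axis (red NOD.B10, blue BL/10; symbols give the replicate). T cell sums lie higher and neutrophil and pancreas acinar sums lower in NOD.B10 without overlap, the sympathetic neuron sums are the lowest at 10.2 to 18.0 CPM, and BL/10 replicate 3 has the highest adipocyte sum.

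The remaining marker lists moved less or in other directions. Plasma cell markers were higher in NOD.B10 for 7 of 10 genes (3548 to 4069 against 2285 to 2854 CPM), B cell markers for 0 of 10 in edgeR's test (0 at an unadjusted p under 0.05, 0 in DESeq2 and 1 in voom; 3607 to 4592 against 2716 to 4991 CPM) and dendritic cell markers for 2 of 10. Macrophage markers were lower for 2 of 10 and megakaryocyte markers for 3 of 14. Pancreas islet markers, Pyy and Ppy among them, reached at most 0.393 CPM in sum. The part of these cells in the values of the 5 genes was not tested.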

How the data were processed

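RNA from spleens of NOD.B10 and BL/10 females (n = 3 each) was sequenced as single-end reads. The authors deposited raw counts per gene, made with featureCounts version 1.5.1 on exons of Ensembl 84 (GRCm38), without normalization. The paper names Tophat2 as aligner and the submitters' processing notes name HISAT2 version 2.0.5. Multi-mapping and overlapping reads were left out and strand was not used. Strain was taken from the sample descriptions, which match the columns in library number and strain. For BL/10 replicate 3 the closing S number of the description differs from that of the column. Symbols matched 47224 of 47729 identifiers.

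Counts were filtered with filterByExpr (15330 genes), normalized by TMM and compared with edgeR's quasi-likelihood test (R 4.3.3, edgeR 4.0.16), with BL/10 as the reference and a Benjamini-Hochberg adjusted p under 0.05 as threshold. TPM was computed from the counts and exon lengths over all genes. The floor of detection was 3 counts per library. Log2 CPM for likeness used a prior count of 2 and genes with a mean CPM of at least 1. The fit was tested on simulated counts. The 5 genes and all gene lists were chosen with earlier results of these data known. Named were the 5 genes, called genes and family relatives in the lists, the nearest gene on each side with the called ones among the 5, and the 3 most similar genes. A few of these genes are not reported here. Alternatives were DESeq2 1.42.0, limma-voom (limma 3.58.1), other normalizations and filters, a replicate block, abundant genes left out, each library left out and the libraries labelled 36 weeks left out. Mice are separate per library, and p-values measure the spread between these samples. In BL/10 this spread includes the differences in labelled age and in pancreas acinar sum.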

Additional observations from a re-analysis of the deposited data

How the results depend on the processing

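The fold of Npy was at least 46.4 to 57.7 over 13 alternatives, and could not be computed with at least 10 counts in every library, where Npy is dropped, or with voom, which gives no bound. Npy1r (0.74 to 1.08) and Ngfr (-1.21 to -0.87) kept their direction in all 15 alternatives. Only BL/10 replicate 1, which had the highest pancreas acinar sum (14075 CPM), is left when the libraries labelled 36 weeks are taken out. It is then assumed to vary like the NOD.B10 libraries, and labelled age cannot be told apart from its other traits. Dpp4 fell to 0.031 without the libraries labelled 36 weeks. Without these libraries 1001 of all genes, 5 genes of the lists and 3 neighbors passed, fewer samples being compared. When 1 library was left out, these counts were 1269 to 4107, 6 to 19 and 4 to 15, against 2656, 12 and 11 with all libraries. Log2 fold changes were then 0.74 to 1.04 (Npy1r), 0.21 to 0.52 (Dpp4), -1.21 to -0.87 (Ngfr) and -0.13 to 0.16 (Adrb1). The choice of most similar genes was the least stable, with 3 of 15 kept with z-scores and 7 of 15 with a mean CPM of at least 5. DESeq2 found 3319, 16 and 11 genes, voom 3344, 18 and 12, and no filter beyond 1 count 3104, 17 and 11. Of 343 values of 23 named genes, 250 kept their call, 93 lost it and 0 changed sign. The replicate numbers did not pair the libraries (correlations of deviations 0.03, 0.17 and -0.08), and with a replicate block 2889 genes, 11 genes of the lists and 12 neighbors passed, with log2 fold changes of 0.91 for Npy1r, 0.36 for Dpp4, -1.04 for Ngfr and -0.01 for Adrb1 and a fold of at least 51.6 for Npy. Counts of 60 to 268 reads limit the precision for Ngfr, Adrb1 and Npy1r.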

Other observations

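In the list of other neuropeptides and their receptors, 2 genes that were not tested varied strongly among the BL/10 libraries. Cckar, the receptor of cholecystokinin on pancreas acinar cells, had 0, 0 and 2 reads in NOD.B10 and 151, 12 and 1 reads in BL/10 (replicates 1, 2 and 3), the order of the pancreas acinar sum in BL/10 (14075, 2111 and 112 CPM). Gal, which encodes the neuropeptide galanin, had 9, 7 and 9 reads in NOD.B10 and 63, 9 and 0 reads in BL/10. The part of pancreas tissue in these counts was not tested. Npy had 0 reads in each of these BL/10 libraries, and the part of pancreas tissue in its counts was not tested either. Of the genes with at least 100 reads in every library of 1 strain and 0 in every library of the other, 1 was counted in NOD.B10 (Npy) and 2 in BL/10.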
